A study of Mus musculus with 4 samples.

Results

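The genes described here make cholesterol and fatty acids or control that synthesis. They are 32 genes, listed by name with no threshold on their values, though with earlier results of these data known, out of 34797 gene names on the array. All 32 names were found among the probes. Of these, 19 were placed with sterol synthesis and 13 with fatty acid synthesis. A gene was read from the probe of that name with the highest mean log2 intensity. All 32 such probes were well above background on all 4 arrays, as the scanner software flags it, so no member was lost to a filter on dim probes.

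RNA of pancreatic islets from 24-week-old C57BL/6 mice was measured on 4 one-colour Agilent arrays, 1 array per group. The groups were transgenic males profiled 6 weeks after an E2 implant (male Tg E2), transgenic females (female Tg), transgenic males with diabetes per the labels (male Tg) and wild-type males (male WT). E2 commonly stands for estradiol. The labels do not name the transgene, its promoter or the number of mice behind an array, and there was no wild-type female array. Islets were isolated with collagenase and a density gradient and picked by hand. With 1 array per group there is no replicate check and no p-value. The comparisons below share arrays with each other, each value compares single arrays, and the number of arrays limits the precision. A level is the log2 of background-corrected intensity minus the array's own 75th percentile, so 0 marks a probe as bright as that percentile. Levels of different genes come from different probes and are not set against each other. Errors after ± are standard errors of a log2 difference from the scanner software's error model, which holds a fixed 10% error per spot. They ran from 0.20 to 0.39 with a median of 0.20 for the members and do not include variation between mice. A gene was called higher or lower at a difference of at least 2-fold, which is 1 on the log2 scale.

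Facts of the whole set of arrays bear on every value. The 75th percentile of intensity was lowest on the male Tg array (202), against 299 on the male Tg E2 array, 261 on the female Tg array and 365 on the male WT array. The share of spots well above background ran from 49.9% to 54.8%, with 0 saturated. The median of all measured gene names was 0.07 log2 in male Tg E2 over male Tg, 0.06 in female Tg over male Tg, −0.15 in male Tg over male WT and −0.08 when male Tg E2 was set over male WT. All 8 beta cell markers, all 4 alpha cell markers and both delta cell markers on the lists were well above background on all 4 arrays. Markers of exocrine acinar cells were also well above background on all 4 arrays, 12 of 12.

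Cells make cholesterol from acetyl units by way of mevalonate, squalene and lanosterol. Fatty acids start from the same acetyl units, which ATP citrate lyase releases from citrate, and are then carboxylated, joined, lengthened and desaturated. The transcription factor SREBP-2, the product of Srebf2, is known chiefly for the genes of sterol synthesis, and SREBP-1, the product of Srebf1, for those of fatty acid synthesis. Scap escorts both factors out of the endoplasmic reticulum when sterols are low, and Insig1 and Insig2 hold them back when sterols are plentiful. Beta cells carry much of this machinery, and malonyl-CoA, the product of the carboxylases Acaca and Acacb, is known there as a brake on fatty acid oxidation.

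Promoter sequence is given for 4 sterol genes because that set moved in 1 direction between a pair of arrays, as described below. The windows are RefSeq's, on build GRCm38.p6, from 250 bases before to 50 bases after the start of transcription, read 5′ to 3′ along the gene. Of the members, 16 sterol and 10 fatty acid genes matched this table, some of them with several starts. Fdps, Fdft1 and Sqle were the sterol genes without a window. Both strands were searched for the sterol regulatory element TCACNCCAC, for the E-box CACGTG and for the CCAAT box, which reads ATTGG on the other strand. Only exact matches were counted, so a site that differs by a letter, such as TCACCCCAT in the Srebf2 window, counts as absent. The sterol element was found in 1 of 16 sterol genes, Hmgcs1, where it begins 137 bases before the start. It was found in 0 of 10 fatty acid genes and in 1.44% of 27025 genes. The CCAAT box was found in 15 of 16 sterol genes (93.8%) and in 7 of 10 fatty acid genes (70.0%), against 41.1% of all genes. Counted by window, these shares were 68.2% for sterol genes, 57.1% for fatty acid genes and 37.4% for all windows. The E-box was found in 4 of 16 sterol genes and 1 of 10 fatty acid genes, against 8.09% of all genes. A match is a run of letters and not a measured binding site. In the sequences the capitals mark the sterol element and the CCAAT box. Hmgcs1 is shown because it holds the sterol element, Mvk because it holds 5 CCAAT boxes, and Cyp51 and Insig1 because their arrays lay furthest apart among the sterol genes.
Hmgcs1, chr13:119690101-119690400, plus strand: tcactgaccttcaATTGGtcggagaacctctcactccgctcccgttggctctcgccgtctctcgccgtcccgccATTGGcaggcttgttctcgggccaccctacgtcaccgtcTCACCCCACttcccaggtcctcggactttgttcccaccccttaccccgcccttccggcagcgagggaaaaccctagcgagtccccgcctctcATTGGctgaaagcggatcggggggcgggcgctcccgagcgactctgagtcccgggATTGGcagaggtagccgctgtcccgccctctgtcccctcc
Mvk, chr5:114444019-114444318, plus strand: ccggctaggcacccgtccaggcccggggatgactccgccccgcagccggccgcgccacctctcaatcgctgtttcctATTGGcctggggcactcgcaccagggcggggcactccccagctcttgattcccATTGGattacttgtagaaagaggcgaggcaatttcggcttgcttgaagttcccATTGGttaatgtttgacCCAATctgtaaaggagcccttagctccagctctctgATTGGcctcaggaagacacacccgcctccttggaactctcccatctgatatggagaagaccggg
Cyp51, chr5:4104648-4104947, minus strand: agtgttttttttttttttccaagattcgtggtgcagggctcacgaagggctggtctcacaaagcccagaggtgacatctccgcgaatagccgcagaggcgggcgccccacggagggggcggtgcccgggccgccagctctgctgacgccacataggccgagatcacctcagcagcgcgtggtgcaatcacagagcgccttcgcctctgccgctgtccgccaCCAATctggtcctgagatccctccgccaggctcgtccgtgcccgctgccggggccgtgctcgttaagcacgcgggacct
Insig1, chr5:28071162-28071461, plus strand: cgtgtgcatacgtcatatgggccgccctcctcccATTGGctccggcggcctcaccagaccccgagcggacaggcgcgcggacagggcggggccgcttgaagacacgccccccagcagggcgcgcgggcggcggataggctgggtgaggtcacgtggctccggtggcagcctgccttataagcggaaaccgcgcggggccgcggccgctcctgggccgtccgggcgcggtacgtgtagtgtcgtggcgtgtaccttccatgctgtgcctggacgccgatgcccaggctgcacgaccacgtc

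Sterol genes were mostly a little lower on the male Tg E2 array than on the male WT array. Setting these arrays against each other addresses the transgene and the implant together, and they cannot be told apart in it. By their brightest probes all 19 lay below 0 in this comparison, against 57.6% of 19877 gene names, and their median difference was −0.46 log2 beside −0.08 for all gene names. The differences were small for single genes and ran from −1.04 to −0.05. At the 2-fold limit 1 of 19 was lower and 0 were higher, against 3.16% and 7.87% of all gene names, so most of the set differed by less than 2-fold in the same direction. On male Tg, which had no implant, 16 of 19 were also below male WT, with a median of −0.32. Of the 19 genes, 12 had their lowest level of the 4 arrays on the male Tg E2 array, against 10.6% of 18542 gene names that were well above background on all 4 arrays. None had its lowest level on the male WT array, against 23.4% of these gene names. On that array 11 had their highest level, against 40.8%. After quantile normalization of the arrays 18 of 19 were below 0, and 13 of 19 were lowest on the male Tg E2 array. Dimmer probes of 2 members had the opposite sign, with 0.66 for Nsdhl and 0.14 for Srebf2. Outside the 19, Acat2, a thiolase gene at the start of the pathway, and Sc5d, a sterol desaturase gene, also lay above 0, at 0.10 and 0.11. Beta cell markers were lower on male Tg E2 than on male WT as well, with a median of −0.80, 6 of 8 below 0 and 3 of 8 at least 2-fold lower, and their part in the sterol values was not tested. Fewer cells of a type and less RNA per cell cannot be told apart in RNA of whole islets.

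**Figure D1:**
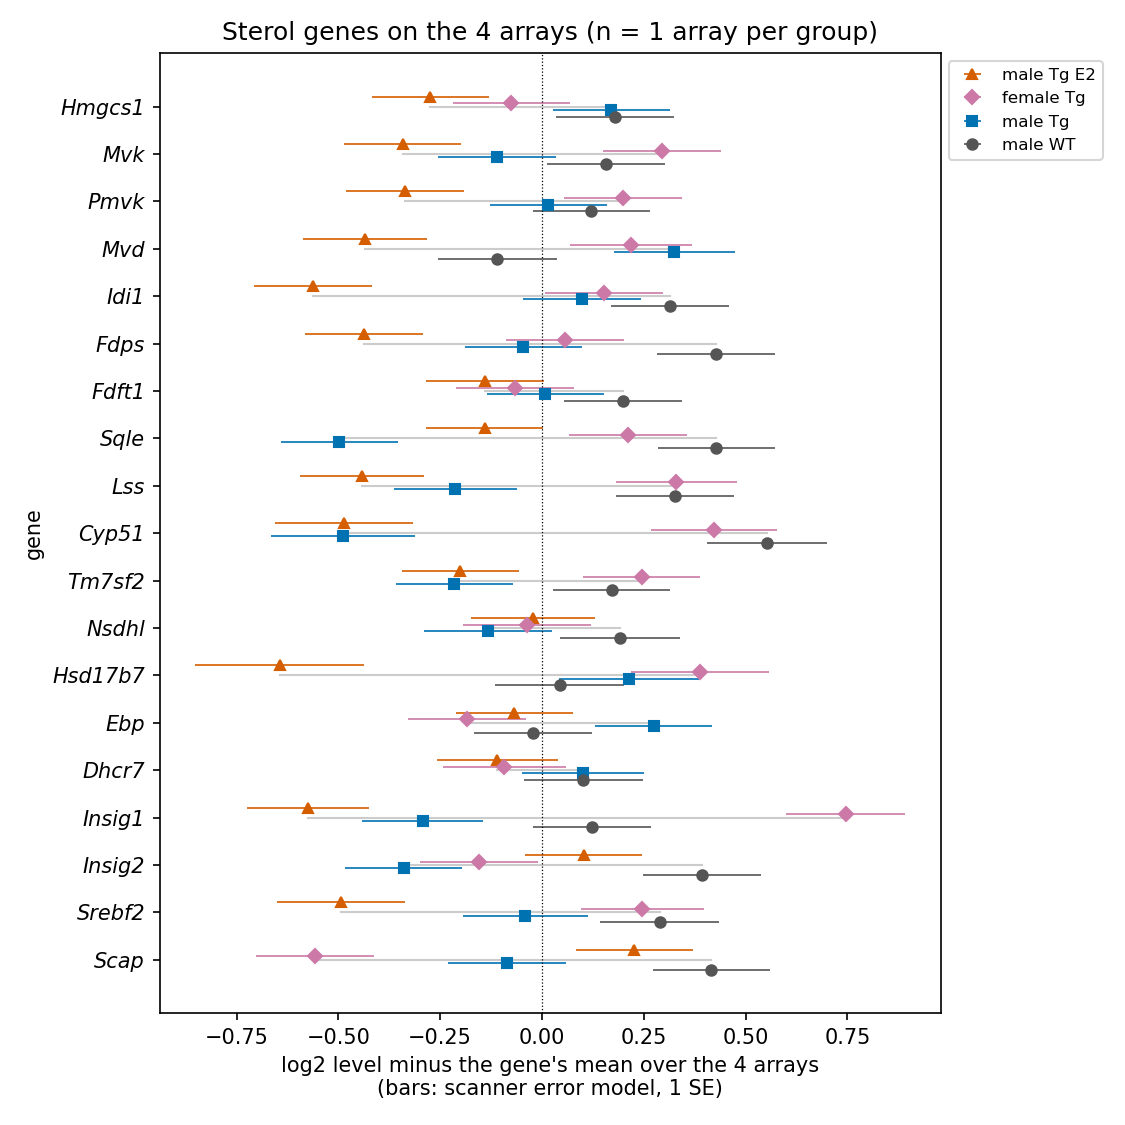
Log2 level of each sterol gene minus its own mean over the 4 arrays (x axis), with genes in pathway order from top to bottom and regulators last; each point is 1 array and bars are 1 standard error of the scanner software's error model. The male Tg E2 array is lowest for 12 of the 19 genes, among them all 7 from Hmgcs1 to Fdft1, and the female Tg point of Insig1 lies furthest to the right.

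All 7 genes of the first steps, from acetyl units to squalene, were lowest on the male Tg E2 array. In male Tg E2 over male WT their median difference was −0.46, beside −0.47 for the 8 genes from squalene to cholesterol and −0.49 for the 4 regulators, so the groups of genes were alike in that comparison. Hmgcs1, which makes HMG-CoA, had levels of 3.09 on the male Tg E2 array, 3.29 on the female Tg array, 3.53 on the male Tg array and 3.54 on the male WT array. The male Tg and male WT arrays were close to each other and the male Tg E2 array stood 0.45 ± 0.20 log2 below male WT. The mevalonate kinase gene Mvk read 2.35 on male Tg E2, 2.98 on female Tg, 2.58 on male Tg and 2.85 on male WT. The next kinase gene in the pathway, Pmvk, read 3.50, 4.04, 3.85 and 3.96 on the same arrays in the same order. In both kinase genes female Tg was highest and male Tg E2 lowest.

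Idi1, which isomerises the isoprene building block, gave 0.60 on male Tg E2, 1.31 on female Tg, 1.26 on male Tg and 1.48 on male WT. It was the second lowest sterol gene in male Tg E2 over male WT, at −0.88 ± 0.20. Fdps, which joins isoprene units into farnesyl diphosphate, read 2.95 on male Tg E2, 3.44 on female Tg, 3.34 on male Tg and 3.81 on male WT. Its difference between male Tg E2 and male WT was −0.86 ± 0.20. Both of these genes had the 3 arrays without an implant above the implant array. Mvd, the decarboxylase before Idi1, was the exception to the high male WT level, with −0.76 on male Tg E2, −0.10 on female Tg and −0.43 on male WT, and a male Tg level 0.43 ± 0.21 above male WT. Fdft1, the squalene synthase gene, ran from 1.67 on male Tg E2 to 2.01 on male WT, a span within 2 standard errors.

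Of the 8 genes from squalene to cholesterol, 3 were lowest on male Tg E2, 4 on male Tg and 1 on female Tg. Sqle, which oxidises squalene, read 4.12 on male Tg E2, 4.47 on female Tg, 3.77 on male Tg and 4.69 on male WT. It was 0.93 ± 0.20 lower on male Tg than on male WT, just inside the 2-fold limit. Lss, which closes the sterol rings, read −1.07 on male Tg E2, −0.30 on female Tg, −0.84 on male Tg and −0.30 on male WT. Cyp51, the lanosterol demethylase gene, read −2.03 on male Tg E2, −1.12 on female Tg, −2.03 on male Tg and −0.99 on male WT. For Sqle, Lss and Cyp51 alike, female Tg stood beside male WT and both other transgenic arrays stood lower. Cyp51 was the only sterol gene past 2-fold against male WT, 2.06-fold lower on male Tg and 2.05-fold lower on male Tg E2. It did not reach 2-fold in either comparison after normexp background correction (−0.51 for male Tg and −0.63 for male Tg E2) or with the median of all gene names subtracted (−0.89 and −0.96).

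The late steps were mixed. Tm7sf2, a sterol reductase gene, read 1.92 on male Tg E2, 2.36 on female Tg, 1.90 on male Tg and 2.29 on male WT, the same split as for Cyp51 on a smaller scale. Nsdhl, which takes part in removing sterol methyl groups, and Dhcr7, the last reductase of the pathway, spanned 0.32 and 0.21 log2 over the 4 arrays. A second, dimmer probe of Nsdhl, well above background on 3 arrays, read −2.97 on male Tg and −3.97 on male WT, the opposite sign to the brighter probe. Ebp, a sterol isomerase gene, read 4.54 on male Tg E2, 4.42 on female Tg, 4.88 on male Tg and 4.58 on male WT, with male Tg highest. Hsd17b7, a sterol ketoreductase gene, read −2.64 on male Tg E2, −1.61 on female Tg, −1.79 on male Tg and −1.96 on male WT. A second probe of Hsd17b7 put female Tg lowest, at −2.70, with −2.39 on male Tg E2. The position of the female array and the lowest array in this gene therefore depend on the probe.

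Among the 4 regulators Insig1 moved most. It read −0.79 on male Tg E2, 0.53 on female Tg, −0.51 on male Tg and −0.09 on male WT, so female Tg was highest and male Tg E2 lowest. Srebf2 itself read −1.48 on male Tg E2, −0.74 on female Tg, −1.03 on male Tg and −0.69 on male WT. A dimmer probe of Srebf2, well above background on 2 arrays, differed by 0.14 between male Tg E2 and male WT, the opposite sign. Insig2 read 2.49 on male Tg E2, 2.24 on female Tg, 2.05 on male Tg and 2.78 on male WT. Scap read 4.41 on male Tg E2, 3.63 on female Tg, 4.10 on male Tg and 4.60 on male WT. Insig2 and Scap therefore did not follow Insig1 and Srebf2 across the arrays.

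Setting male Tg over male WT addresses the transgene and the diabetes together. Sterol genes had a median difference of −0.32 log2 with 16 of 19 below 0, where 57.6% of 19485 gene names were below 0. At 2-fold 1 of 19 was lower and 0 higher, against 8.71% and 14.5% of all gene names. Of the 19 genes, 13 lay below the median of all gene names, and 6 above it. The 3 genes above 0 were Mvd, Ebp (0.30) and Hsd17b7 (0.17).

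Male Tg E2 over male Tg addresses the implant in transgenic males, together with any difference in the diabetes labelled for male Tg. Sterol genes had a median of −0.23 log2 with 13 of 19 below 0, against 44.2% of 19694 gene names. None reached 2-fold in either direction, against 2.75% higher and 7.66% lower among all gene names. All 7 genes of the first steps were below 0 (median −0.39), and 4 of the 8 later ones were. Hsd17b7 (−0.86), Mvd (−0.76) and Idi1 (−0.66) differed most, though a second probe of Hsd17b7 gave −0.36. Insig2 (0.44), Sqle (0.36) and Scap (0.31) led the other direction.

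Female Tg over male Tg addresses sex within the transgenic mice, together with any difference in the diabetes that the labels give for male Tg. Sex and diabetes cannot be told apart here. Sterol genes had a median of 0.17 log2 with 6 of 19 below 0, against 45.1% of 19044 gene names. Insig1 was 1.04 ± 0.21 higher on female Tg, a 2.06-fold difference, and was the only 1 of 19 past 2-fold. It fell short of 2-fold after normexp background correction (0.85) and with the median of all gene names subtracted (0.98). Among all gene names 3.96% were higher and 8.73% lower at 2-fold. Cyp51 (0.91), Sqle (0.71) and Lss (0.54) came next, and Scap (−0.47) and Ebp (−0.46) lay furthest in the other direction.

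**Figure D2:**
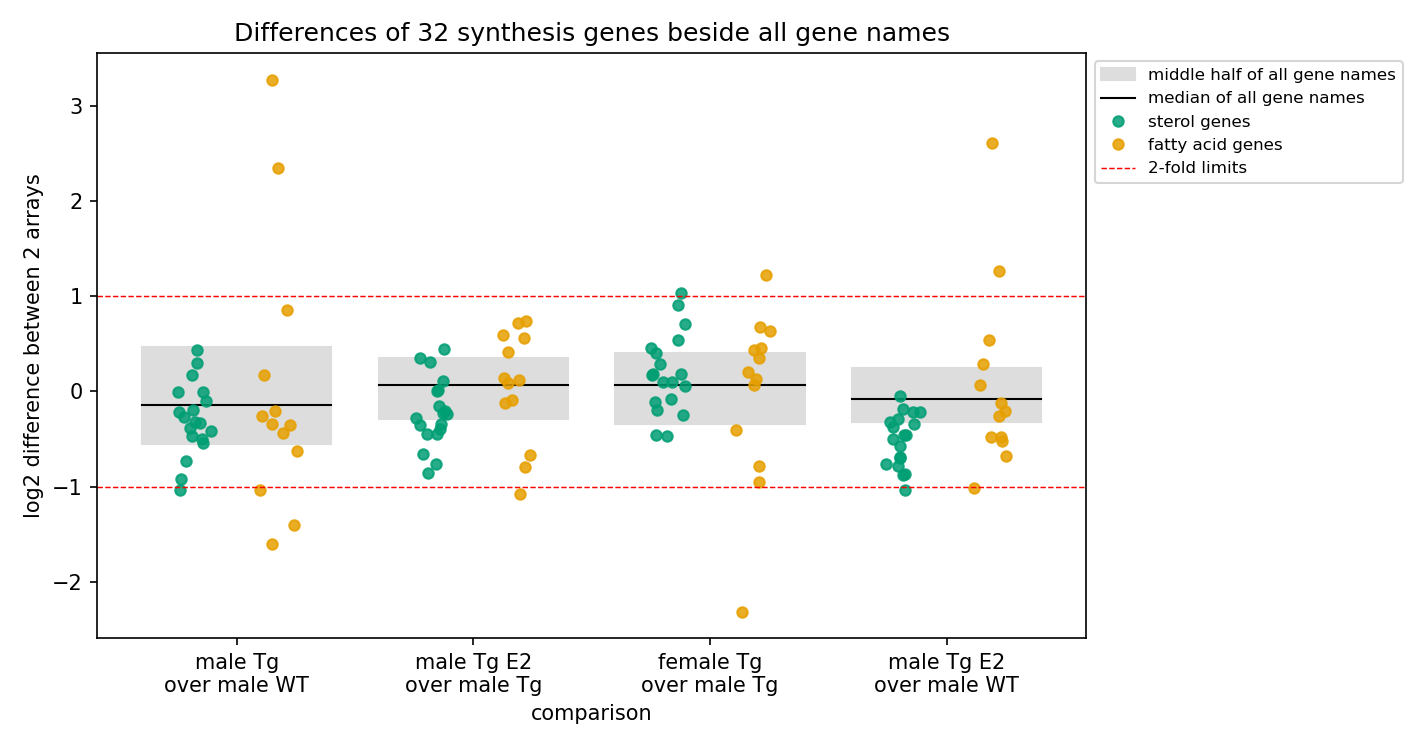
Log2 difference between arrays (y axis) of each sterol gene (green) and fatty acid gene (orange) in the 4 comparisons (x axis), beside the interquartile range (grey) and the median (black line) of all measured gene names; dashed lines mark 2-fold. In male Tg E2 over male WT all 19 sterol genes lie below 0, whereas the fatty acid genes spread from −1.02 to 2.61.

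Fatty acid genes did not move as a set. Their medians were −0.34 log2 in male Tg over male WT, 0.12 in male Tg E2 over male Tg, 0.20 in female Tg over male Tg and −0.20 in male Tg E2 over male WT. In that order 9, 5, 4 and 8 of 13 were below 0, against 57.6%, 44.2%, 45.1% and 57.6% of all gene names. In male Tg over male WT 9 of 13 lay below the median of all gene names, beside 13 of 19 sterol genes, so the sets were alike there. Over the 4 arrays 5 of 13 genes spanned at least 2-fold, not far from the 29.5% of all gene names, beside 3 of the 19 sterol genes. Their median span was 0.84 log2, against 0.69 for all gene names and 0.76 for sterol genes. Acacb (3.28) and Scd1 (2.35) spanned most. In male Tg over male WT 2 of 13 were higher and 3 lower at 2-fold, against 14.5% and 8.71% of all gene names. Of the 13, 7 had their lowest level on the male Tg array, near the 42.8% of all gene names for that array.

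Srebf1, the regulator gene of this branch, read −0.12 on male Tg E2, 0.51 on female Tg, −0.71 on male Tg and 0.90 on male WT. It was 3.05-fold lower on male Tg than on male WT (−1.61 ± 0.21), 2.34-fold higher on female Tg than on male Tg (1.22 ± 0.21) and 2.02-fold lower on male Tg E2 than on male WT (−1.02 ± 0.21). The last of these fell short of 2-fold in 4 of 6 alternative settings, at the least −0.89, and the female difference did after normexp background correction (0.93). The 4 arrays ran from male WT at the top through female Tg and male Tg E2 to male Tg. Acly, the ATP citrate lyase gene, read 7.40 on male Tg E2, 7.49 on female Tg, 6.85 on male Tg and 7.88 on male WT. It was 2.05-fold lower on male Tg than on male WT, but short of 2-fold with the mean of all probes (−0.95) and with the median of all gene names subtracted (−0.89). Acaca, the main lipogenic carboxylase gene, read 2.79 on male Tg E2, 2.83 on female Tg, 2.37 on male Tg and 2.99 on male WT. By their brightest probes Acly and Acaca had male Tg lowest and male WT highest, as Srebf1 did. In male Tg over male WT another Acaca probe gave −0.45, and a dimmer probe gave the opposite sign, 0.71.

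Fasn, the fatty acid synthase gene, stayed within 0.44 log2 over the arrays, with −1.33 on male Tg E2, −0.98 on female Tg, −1.42 on male Tg and −1.07 on male WT. Elovl5, which lengthens polyunsaturated fatty acids, read 3.09 on male Tg E2, 3.04 on female Tg, 2.37 on male Tg and 3.77 on male WT. It was 2.65-fold lower on male Tg than on male WT (−1.41 ± 0.20), and the other 2 transgenic arrays lay between. Elovl6, which lengthens saturated chains, read 1.96 on male Tg E2, 1.65 on female Tg, 2.05 on male Tg and 2.49 on male WT. Male WT was highest for both genes, but Elovl6 was lowest on female Tg and Elovl5 on male Tg.

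Acacb and Scd1 ran the other way. Acacb, the carboxylase gene whose product sits at mitochondria, read 0.78 on male Tg E2, −0.87 on female Tg, 1.45 on male Tg and −1.83 on male WT. It was 9.72-fold higher on male Tg than on male WT (3.28 ± 0.21), 6.11-fold higher on male Tg E2 than on male WT (2.61 ± 0.21) and 4.98-fold lower on female Tg than on male Tg (−2.32 ± 0.21). Both male transgenic arrays stood far above the female transgenic and the wild-type array. Scd1, the stearoyl-CoA desaturase gene, read −0.34 on male Tg E2, −0.22 on female Tg, 0.74 on male Tg and −1.61 on male WT. It was 5.09-fold higher on male Tg than on male WT (2.35 ± 0.21), 2.41-fold higher on male Tg E2 than on male WT (1.27 ± 0.21) and 2.11-fold lower on male Tg E2 than on male Tg (−1.08 ± 0.21). After normexp background correction male Tg E2 was short of 2-fold against male Tg (−0.87) and against male WT (0.98). All 3 transgenic arrays stood above male WT. Its close relative Scd2 read 3.77 on male Tg E2, 4.10 on female Tg, 3.89 on male Tg and 4.25 on male WT, with male WT highest.

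**Figure D3:**
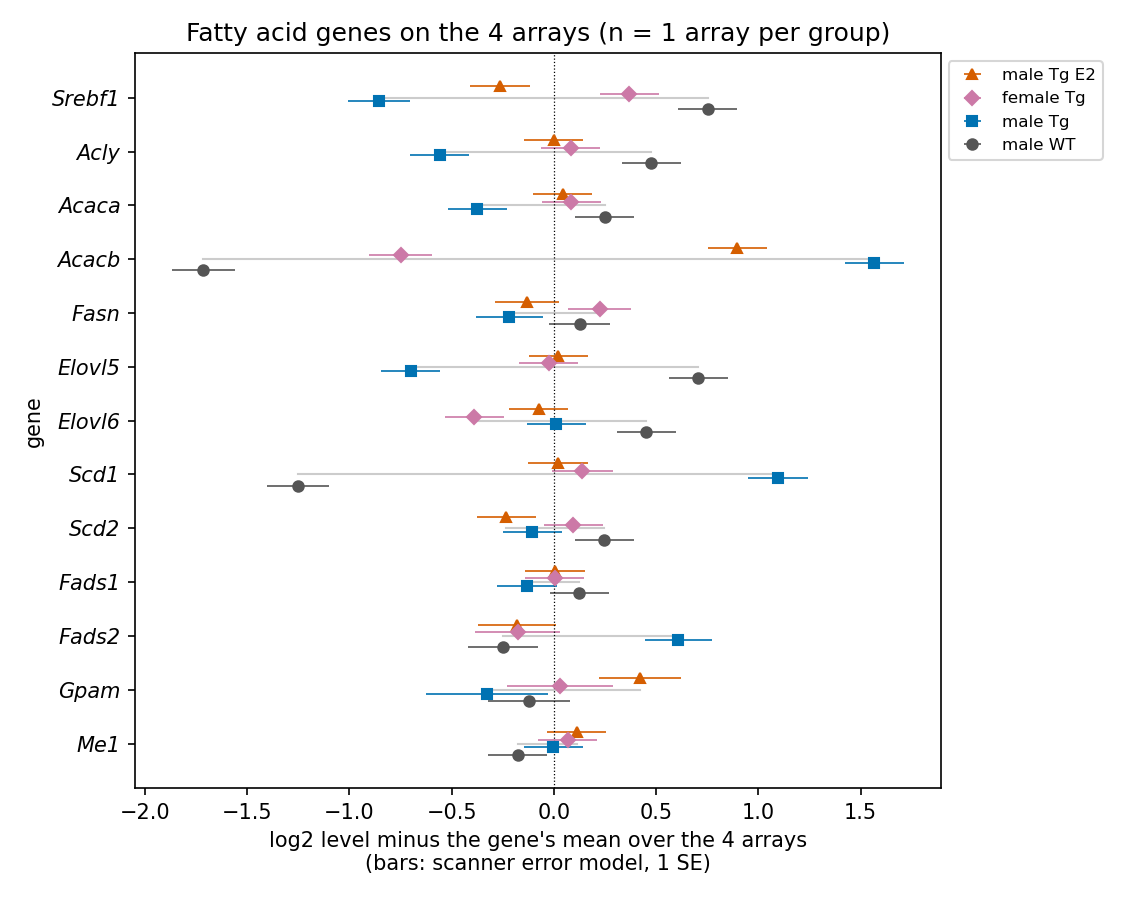
Log2 level of each fatty acid gene minus its own mean over the 4 arrays (x axis); each point is 1 array and bars are 1 standard error of the scanner software's error model. Acacb and Scd1 are lowest on male WT and highest on male Tg, whereas Srebf1, Acly, Acaca and Elovl5 are highest on male WT and lowest on male Tg.

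The remaining members differed by less than 2-fold in all 4 comparisons. Fads2, a desaturase gene for polyunsaturated fatty acids, read −2.46 on male Tg E2, −2.46 on female Tg, −1.67 on male Tg and −2.53 on male WT. Male Tg stood 0.86 ± 0.24 above male WT, and the other 3 arrays were alike within the scanner error. This Fads2 probe was designed on a cDNA clone, and the probe on the RefSeq transcript was not well above background on any array. Fads1, its neighbour in the same pathway, spanned 0.26 log2. Gpam, which adds the first fatty acid to glycerol phosphate, was the dimmest member and had the largest error, with −2.38 on male Tg E2, −2.77 on female Tg, −3.12 on male Tg and −2.92 on male WT. Me1, the malic enzyme gene that supplies NADPH for synthesis, read between 1.80 on male WT and 2.09 on male Tg E2.

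The counts of fatty acid genes at 2-fold rest on few genes. In male Tg over male WT 2 of 13 were higher and 3 lower, with 14.5% and 8.71% among all gene names. With the median of all gene names subtracted 3 were higher and 2 lower, as Fads2 then passed 2-fold and Acly did not. In male Tg E2 over male Tg 0 of 13 were higher and 1, Scd1, was lower, with 2.75% and 7.66%. In female Tg over male Tg 1, Srebf1, was higher and 1, Acacb, lower, with 3.96% and 8.73%. In male Tg E2 over male WT 2, Acacb and Scd1, were higher and 1, Srebf1, lower, with 7.87% and 3.16%.

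Markers of other cells moved between the same arrays. The 12 acinar markers had a mean level of 8.67 on male Tg E2, 5.71 on female Tg, 9.52 on male Tg and 5.50 on male WT, high on the arrays where Acacb was high. Their summed level was 12.93 on male Tg E2, 10.62 on female Tg, 13.59 on male Tg and 10.51 on male WT. Of 7 adipocyte markers, 3 were well above background on male Tg E2, 3 on female Tg, 6 on male Tg and 2 on male WT, and their summed level was 3.03, 2.24, 4.45 and 2.10 on these arrays in that order. The array order of Acacb was thus shared by the acinar and adipocyte sums, and also by the stellate sum given below. Adipoq, Plin1 and Retn were well above background on male Tg only, the array on which Scd1 was highest, and Lep on none. Scd1 was highest on male Tg and lowest on male WT, as were the adipocyte, alpha, delta and lymphocyte sums. Between them Scd1 read −0.22 on female Tg and −0.34 on male Tg E2, each with a scanner error of 0.15. The order of these arrays is therefore not settled for Scd1. The adipocyte sum was higher on male Tg E2 than on female Tg, and the alpha, delta and lymphocyte sums were lower. The alpha sums there were close, at 9.89 and 9.95, as were the delta sums, at 9.70 and 9.77. The lymphocyte sum was 3.73 on male Tg E2, 5.28 on female Tg, 5.36 on male Tg and 3.21 on male WT. The part of acinar, adipose or other cells' RNA in the values of Acacb, Scd1 and Fads2 was not tested.

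Of 8 beta cell markers, 5 were at least 2-fold lower and 0 higher on male Tg than on male WT (median −1.82), against 8.71% and 14.5% of all gene names. Their mean level was 5.24 on male Tg E2, 5.42 on female Tg, 4.56 on male Tg and 6.13 on male WT, lowest on the array where Srebf1, Acly, Acaca and Elovl5 were lowest. The summed level, which the insulin genes dominate, ran differently, with 10.97 on male Tg E2, 10.89 on female Tg, 11.38 on male Tg and 10.93 on male WT. The part of beta cell content in the values of these 4 genes was not tested. Stellate cell markers (6 of 6 well above background) had summed levels of 6.49 on male Tg E2, 5.53 on female Tg, 6.73 on male Tg and 3.12 on male WT, so all 3 transgenic arrays were above male WT. No marker list had its lowest summed level on male Tg E2 except the erythrocyte list, at 5.64 there, 7.22 on female Tg, 9.02 on male Tg and 6.78 on male WT. The part of red cells in the low sterol levels on male Tg E2 was not tested.

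**Figure D4:**
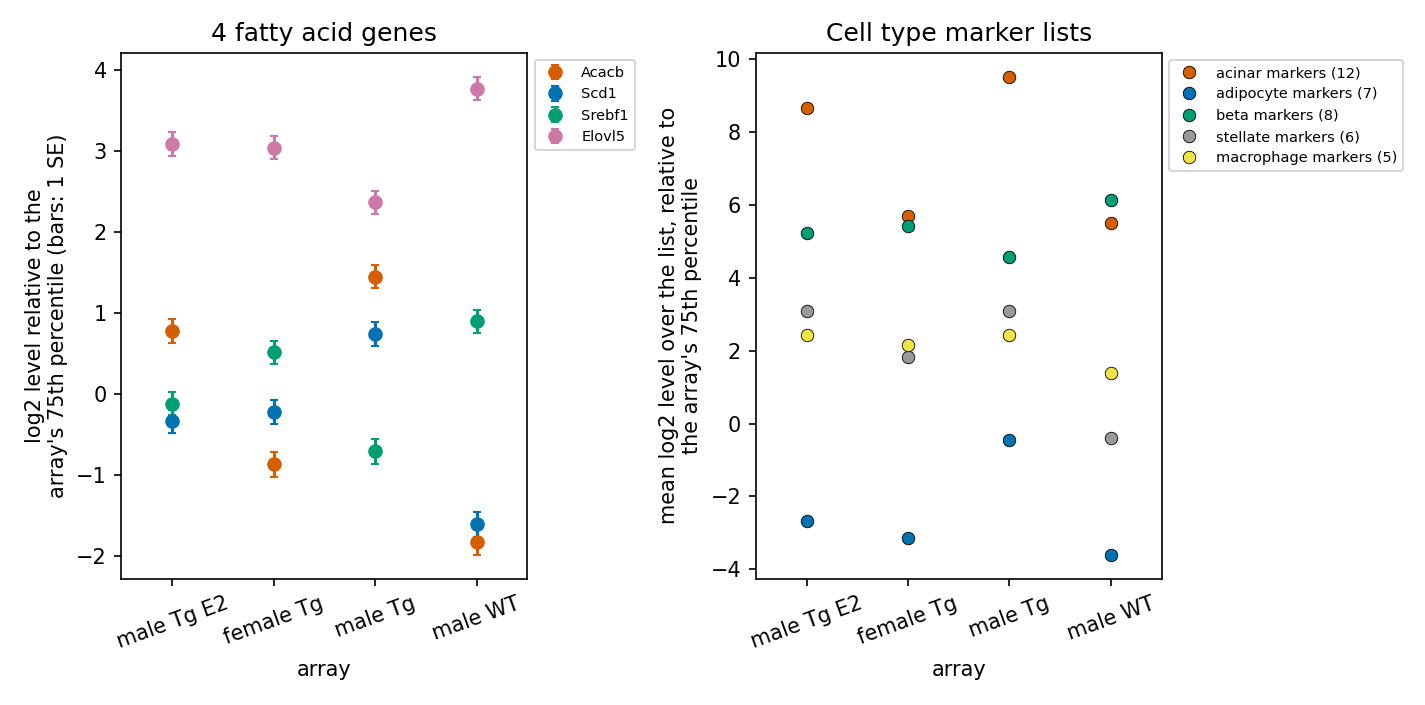
Left, log2 level of Acacb, Scd1, Srebf1 and Elovl5 on each array (bars, 1 standard error of the scanner software's error model); right, mean log2 level of cell type marker lists, with the number of markers in brackets. Each gene or list is to be read across the arrays only. Acinar markers are high on male Tg E2 (8.67) and male Tg (9.52), where Acacb is high, and beta cell markers are lowest on male Tg (4.56), where Srebf1 and Elovl5 are lowest. Adipocyte, stellate and macrophage markers are also higher on male Tg E2 and male Tg than on female Tg and male WT.

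Other genes of sterol handling were read from a list of 14, of which 13 had a probe under that name and Msmo1 had none. Their median differences were −0.10 log2 in male Tg over male WT, −0.11 in male Tg E2 over male Tg, −0.15 in female Tg over male Tg and −0.07 in male Tg E2 over male WT, and so the list as a whole stayed near 0. Stard4, a sterol carrier gene, read 0.02 on male Tg E2, 0.51 on female Tg, 0.66 on male Tg and 0.75 on male WT. Male Tg E2 was lowest, as for 12 of the 19 sterol genes. The cholesterol exporter genes were lower on male Tg than on male WT, Abca1 with a difference of −1.01 and Abcg1 of −1.35. Abca1 was 1.42 higher on male Tg E2 than on male Tg, and Abcg1 1.25 higher on female Tg than on male Tg. Soat1, which esterifies cholesterol, was 1.12 higher on female Tg than on male Tg.

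A further 20 genes around fatty acid use and triglyceride synthesis were listed, and 19 had a probe under that name, all but Hacd3. In male Tg over male WT 2 of 19 were higher and 3 lower at 2-fold, against 14.5% and 8.71% of all gene names. Lower were Mlxipl, which encodes the glucose-responsive factor ChREBP (−1.13), Acss2, which makes acetyl-CoA from acetate (−1.11), and Prkaa1, a catalytic subunit gene of AMP-activated kinase (−1.29). Higher were Dgat1, which completes triglycerides (1.40), and the fatty acid uptake gene Cd36 (2.19). In female Tg over male Tg 0 of 19 were higher and 4 lower, namely Dgat2 (−2.68), Dgat1 (−1.89), Cd36 (−1.82) and Agpat2 (−1.25), against 3.96% and 8.73% of all gene names. In male Tg E2 over male Tg 0 were higher and 1, Dgat1, was lower (−1.69), against 2.75% and 7.66%. In male Tg E2 over male WT 3 were higher, Cd36 (1.52), Thrsp (1.42) and Lpin1 (1.06), and 0 lower, against 7.87% and 3.16%. Cd36 thus had the array order of Acacb, with −0.33 on male Tg E2, −1.48 on female Tg, 0.34 on male Tg and −1.85 on male WT.

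The choice of probe could be checked for a minority of members. Of the 32 genes, 17 had a single probe and 15 had several. In male Tg over male WT 9 members had another measured probe, and it had the opposite sign in 3, Acaca, Hsd17b7 and Nsdhl, and lay over 1 log2 away from the chosen probe in 2. Probe positions on build mm9, as the scanner files give them, are chr5:114700702-114700761 for Acacb, chr19:44469387-44469446 for Scd1, chr11:60012664-60012723 for Srebf1, chr9:77832205-77832264 for Elovl5, chr5:4081471-4081530 for Cyp51 and chr5:28404246-28404305 for Insig1. Whether a probe lies in coding sequence or in an untranslated region was not assigned. The second Acacb probe was not well above background on any array.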

How the data were processed

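Total RNA of islets from 4 groups was labelled with Cy3 and hybridised, 1 array per group. The deposited scanner files hold intensity on a linear scale, background-corrected and detrended by Feature Extraction 10.7.1.1 per the file headers, whereas the submitters' processing notes name version 9.5.1.1. Control spots and spots with an outlier flag were left out, spots of a probe were averaged as log2, and each array's 75th percentile over 55681 probes was subtracted. In each comparison a probe counted when it was well above background on both arrays. The authors' deposited value table also holds intensity, on a linear scale with the same sorted values on every array, so it was quantile-normalized. It was used as an alternative. Normexp background correction (offset 50) came from limma 3.58.1 in R 4.3.3, and the rest from Python 3.11.15. The steps were tested on simulated data. No test of conditions was possible with 1 array per group. The members, gene lists and their split were chosen with earlier results of these data known. Named genes are all members, plus genes of the 2 further lists at 2-fold, of which 1 is not reported here. Stard4, Acat2, Sc5d, the values of Cd36 on every array and the grouping of sterol genes by pathway step were chosen after values were seen.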

Additional observations from a re-analysis of the deposited data

How the results depend on the processing

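No paired analysis was possible because each group had 1 array. Results were recomputed with quantile normalization, normexp, the series matrix values, no filter on dim probes and the mean of all probes, and, chosen after seeing the data, with the median of all gene names subtracted. In all 48 values the 8 medians moved by no more than the median scanner error of a single gene's difference, about 0.20. This limit is wide for medians smaller than itself, such as 0.12 for fatty acid genes in male Tg E2 over male Tg. The sterol median of 0.17 in female Tg over male Tg is also smaller. For such medians the check says little. Sterol genes below 0 in male Tg E2 over male WT numbered 18 or 19. The median of all gene names in male Tg over male WT was 0.21 without the filter, against −0.15 with it. Counts at 2-fold were less stable, and the cause was not tested. The shares of all gene names at 2-fold moved too, and after normexp they fell in every comparison. After quantile normalization 2 fatty acid genes were higher in female Tg over male Tg, against 4.80% of all gene names. In male Tg E2 over male WT 0 were lower, against 3.38%. After normexp 0 fatty acid genes were lower for the implant within male Tg, against 4.71% of all gene names. In female Tg over male Tg 0 sterol and 0 fatty acid genes were higher, against 1.65%. In male Tg E2 over male WT 0 sterol genes were lower, against 1.95%. There 1 fatty acid gene was higher and 0 lower, against 4.35% and 1.95%. With the series matrix values female Tg over male Tg had 2 sterol genes higher, 2 fatty acid genes higher and 2 lower. The shares of all gene names were 4.86% higher and 8.46% lower. Male Tg E2 over male WT had 0 fatty acid genes lower, against 3.43%. With the median subtracted, 0 sterol genes were lower in male Tg over male WT (6.32% of all gene names) and in male Tg E2 over male WT (2.63%). In female Tg over male Tg 0 sterol genes were higher, against 3.27%. For fatty acid genes 3 were higher and 2 lower in male Tg over male WT, against 16.5% and 6.32%. Lower were 2 fatty acid genes in female Tg over male Tg, against 9.58%, and 0 in male Tg E2 over male WT, against 2.63%. All 14 member differences past 2-fold kept their sign in all 6 alternatives. Of these, Cyp51 in both comparisons, Acly and Insig1 stayed past 2-fold in 4 of 6 and Srebf1 in male Tg E2 over male WT in 2 of 6. Probes such as that of Gpam, near the background, carry the largest error.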
